A study of Mus musculus with 7 samples.

Results

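The mRNAs described here are 8 marker genes of the hippocampal subfields, taken by symbol from a table of 22248 genes. They are Wfs1, Fibcd1 and Pou3f1 for CA1, Bok and Iyd for CA3, and Prox1, C1ql2 and Dsp for the dentate gyrus. All 8 were found in the table, each in 1 entry, and all 8 passed the filter on low counts. They were measured by RNA sequencing in synaptoneurosomes, a fraction of resealed synaptic terminals that keep a piece of the postsynaptic cell, isolated from the hippocampus of wild-type female C57Bl/6J mice. The AM6545 group held 4 libraries (replicates B, D, E and F) from mice that received AM6545 sub-chronically, and the vehicle group held 3 (replicates B, D and E). AM6545 blocks CB1, a cannabinoid receptor, and enters the brain poorly. The dose, the length of treatment, the age of the mice and the number of mice behind each library are not given in the sources used here, so p-values measure the spread between these libraries, which may be in part technical.

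The hippocampus is a chain of subfields with different principal neurons. Granule cells of the dentate gyrus send mossy fibres to CA3 pyramidal cells, whose Schaffer collaterals reach CA1 pyramidal cells. Each population expresses a characteristic set of genes, so the levels of such genes in a tissue extract reflect which subfields it holds. In synaptoneurosomes they reflect mRNA in dendrites, terminals and carried-over cell bodies, and fewer nerve endings of a subfield cannot be told apart from less mRNA in each.

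The CA1 markers are Wfs1, which encodes wolframin, a membrane protein of the endoplasmic reticulum, Fibcd1, a membrane receptor with a fibrinogen-like domain, and Pou3f1, a POU-domain transcription factor. Of the CA3 markers, Bok encodes a member of the BCL-2 family and Iyd an iodotyrosine deiodinase. In the dentate gyrus, Prox1 is the homeobox transcription factor of granule cells, C1ql2 encodes a secreted C1q-like protein of mossy fibre synapses, and Dsp encodes desmoplakin, a component of desmosomes. In GENCODE release M21 (GRCm38) the protein-coding genes lie at chr5:36966104-36989205 (Wfs1, ENSMUSG00000039474.14), chr2:31813290-31846005 (Fibcd1, ENSMUSG00000026841.8) and chr4:124656807-124660655 (Pou3f1, ENSMUSG00000090125.4). Bok (ENSMUSG00000026278.15) is at chr1:93685660-93695764 and Iyd (ENSMUSG00000019762.5) at chr10:3540240-3554877. The dentate gyrus genes are at chr1:190118035-190170714 (Prox1, ENSMUSG00000010175.14), chr1:120340582-120343174 (C1ql2, ENSMUSG00000036907.12) and chr13:38151294-38198577 (Dsp, ENSMUSG00000054889.11). Exons of a gene on the opposite strand overlap Pou3f1 (Gm2164), Prox1 (Prox1os) and Dsp (Gm10129), so the levels of these 3 are uncertain to that extent.

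The members differ in base composition, which matters below because the difference between the groups varied with GC content across all genes. Weighted by counts, GC content was 57.8% for Wfs1, 59.4% for Fibcd1, 61.3% for Bok, 63.4% for C1ql2 and 63.9% for Pou3f1. It was 45.7% for Prox1, 46.2% for Iyd and 51.5% for Dsp. The contrast is visible in 60 bases from the middle of the coding sequence of 4 members, given 5′ to 3′ on the coding strand from GENCODE M21 transcripts with G and C in capitals. The stretch from Pou3f1-201 holds 50 G or C among the 60 bases, that from C1ql2-201 45, that from Dsp-202 31 and that from Iyd-201 27. In the windows not printed, Fibcd1 has 44, Bok 37, Wfs1 35 and Prox1 35. The contrast is thus not visible there between Wfs1 and Prox1.
Pou3f1, coding bases 643 to 702: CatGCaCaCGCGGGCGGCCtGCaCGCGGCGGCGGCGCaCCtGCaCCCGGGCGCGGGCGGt
C1ql2, coding bases 400 to 459: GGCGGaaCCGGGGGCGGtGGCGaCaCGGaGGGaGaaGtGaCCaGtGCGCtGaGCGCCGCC
Dsp, coding bases 3397 to 3456: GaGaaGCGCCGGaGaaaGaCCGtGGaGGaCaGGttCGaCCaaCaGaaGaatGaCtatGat
Iyd, coding bases 397 to 456: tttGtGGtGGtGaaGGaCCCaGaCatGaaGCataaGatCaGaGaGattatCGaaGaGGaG

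The libraries held 19174529 to 25894586 counts, and the share of mitochondrially encoded genes was 5.07% to 6.66% in AM6545 and 6.11% to 9.83% in vehicle, highest in vehicle replicate B. The slope with GC content of a library's log2 levels, taken against the 7-library mean, was negative in every AM6545 library (-0.13 to -0.03 per 10 percentage points) and positive in every vehicle library (0.05 to 0.14). Principal neuron markers were abundant: Slc17a7, their vesicular glutamate transporter, averaged 1434 ± 102 CPM over AM6545 libraries (SD, n = 4) and 1487 ± 110 CPM over vehicle libraries (SD, n = 3). CPM is the usual sequencing unit of counts relative to library size, here after TMM scaling, which brings the libraries to a common effective size.

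Per kilobase of transcript the members spanned a wide range of levels. Bok, at 106 CPM per kb on average over the 7 libraries, and C1ql2, at 98.4, were highest, and their ranges over libraries overlapped (90.8 to 129.6 and 84.1 to 115). Wfs1 followed at 52.4 CPM per kb (43.9 to 66.0), below every value of C1ql2 and above every value of Fibcd1. Fibcd1 at 35.5 (31.3 to 40.5) and Pou3f1 at 28.5 (18.9 to 36.4) overlapped. Prox1 at 5.63 (4.50 to 6.12) and Iyd at 3.93 (3.08 to 4.70) overlapped as well, and Dsp was lowest at 1.70 CPM per kb (1.11 to 2.23). The 2 lowest members by total rested on the fewest reads, with 79 to 162 counts per library for Iyd and 190 to 403 for Dsp, while Wfs1 had 4019 to 5127. Thus each subfield was represented by at least 1 marker at high counts, but CA3 rested largely on Bok.

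**Figure D1:**
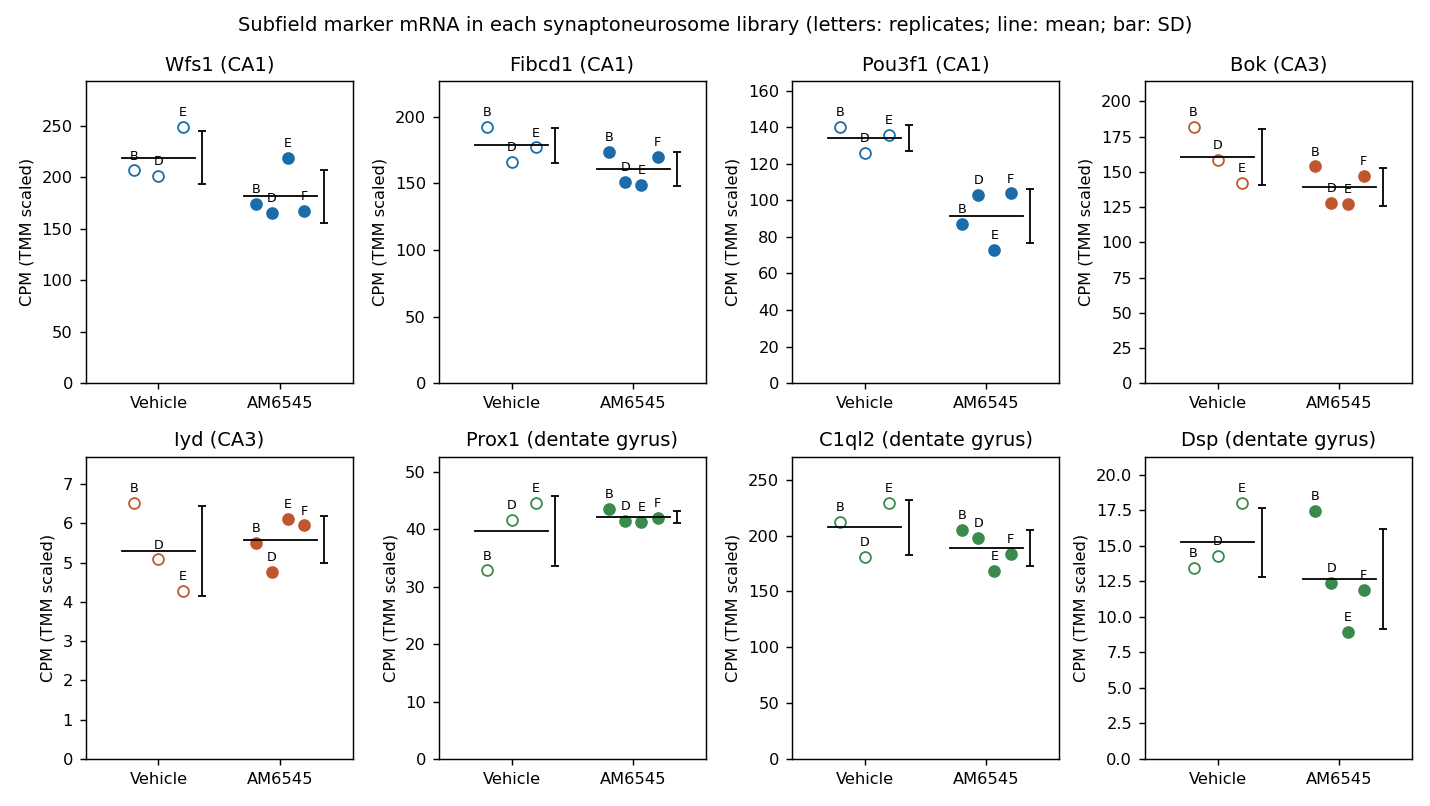
Level of each of the 8 subfield markers (CPM, TMM scaled, vertical axes from 0) in the 3 vehicle libraries (open points) and 4 AM6545 libraries (filled points), with replicate letters, the group mean as a line and its SD as a bar. For Pou3f1 the AM6545 libraries (72.8 to 104 CPM) lie below the vehicle libraries (126 to 140.0 CPM), and for the other 7 genes the groups overlap.

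Comparing AM6545 with vehicle asks whether treatment went with a different content of subfield mRNAs in the synaptic fraction. By edgeR's quasi-likelihood test with Benjamini-Hochberg adjustment over 14654 genes, 0 of the 8 members had an adjusted p under 0.05, against 0.00682% of all genes. Wfs1 and Pou3f1, 2 of the 8, had an unadjusted p under 0.05 and were lower in AM6545, against 14.6% of all genes in either direction. Of all genes, 8.7% (1275) were lower and 5.86% (859) higher by that criterion, and with scaling by total counts 943 were lower and 1104 higher. Pou3f1 alone of the 8 passed the adjusted threshold with DESeq2, which called 1.4% of all genes (205), and with limma-voom, which called 2.69% (394). The log2 fold change was below 0 for 6 of the 8 members and for 48.6% of all genes, with medians of -0.18 and 0.01.

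Among the CA1 markers, Pou3f1 showed the widest separation. It was at 87.0, 103, 72.8 and 104 CPM in AM6545 replicates B, D, E and F and at 140.0, 126 and 136 CPM in vehicle replicates B, D and E. All 4 AM6545 libraries were below all 3 vehicle libraries, as for 7.19% of all genes tested, and 6.63% were separated the other way. The means were 91.6 ± 14.7 (SD, n = 4) and 134 ± 7.15 CPM (SD, n = 3), which is -0.55 on the log2 scale (SE 0.12) and did not pass the threshold (edgeR, p 0.000813, adjusted p 0.199). The adjusted p was 0.0136 by DESeq2, 0.0471 by limma-voom and 0.0357 by edgeR without vehicle replicate E, and it lay between 0.0136 and 0.9995 over 19 alternative settings.

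Wfs1 was at 174, 165, 219 and 167 CPM in AM6545 replicates B, D, E and F and at 206, 201 and 249 CPM in vehicle replicates B, D and E. AM6545 replicate E lay within the vehicle range, and the other 3 AM6545 libraries were below it. The means were 181 ± 25.3 (SD, n = 4) and 219 ± 25.9 CPM (SD, n = 3), with a log2 fold change of -0.27 (SE 0.12, edgeR, unadjusted p 0.0452, adjusted p 0.333). Leaving out vehicle replicate E moved it to -0.17, and the range with any 1 library left out was -0.38 to -0.17. AM6545 replicate E was thus the highest of its group for Wfs1 and the lowest for Pou3f1, so these CA1 markers diverged inside the same library.

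Fibcd1 was at 174, 151, 149 and 170.1 CPM in AM6545 replicates B, D, E and F and at 192, 166 and 177 CPM in vehicle replicates B, D and E. The groups overlapped, and the log2 fold change of -0.15 (SE 0.10) did not pass the threshold (edgeR, adjusted p 0.489). It was -0.09 without vehicle replicate B. Fibcd1 had the smallest spread between replicates of the 8, with a within-group SD of 0.11 on the log2 scale, against a median of 0.18 over all genes.

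In CA3, Bok was at 154, 128, 127 and 147 CPM in AM6545 replicates B, D, E and F and at 182, 158 and 142 CPM in vehicle replicates B, D and E. Vehicle replicate E fell inside the AM6545 range. Its log2 fold change was -0.21 (SE 0.11; edgeR, adjusted p 0.409), and -0.11 without vehicle replicate B. Iyd, the rarer CA3 marker, was at 5.49, 4.77, 6.12 and 5.95 CPM in AM6545 and at 6.52, 5.08 and 4.28 CPM in vehicle, in the same order of replicates. The vehicle libraries enclosed all AM6545 libraries, and the log2 fold change of 0.07 (SE 0.17; edgeR, adjusted p 0.869) became 0.25 without vehicle replicate B and -0.06 without vehicle replicate E. Iyd had 79 to 162 counts per library, and its difference was smaller than its standard error.

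In the dentate gyrus, Prox1 was the steadiest member in AM6545, at 43.6, 41.6, 41.3 and 42.0 CPM in replicates B, D, E and F. Vehicle replicates D and E were similar, at 41.6 and 44.6 CPM, while vehicle replicate B was at 32.9 CPM, 0.76 times the mean of the other vehicle libraries. The log2 fold change was 0.09 (SE 0.11; edgeR, adjusted p 0.734) and -0.03 without vehicle replicate B. C1ql2 was at 205, 198, 168 and 184 CPM in AM6545 and at 212, 181 and 229 CPM in vehicle replicates B, D and E, with a log2 fold change of -0.14 (SE 0.11; edgeR, adjusted p 0.566). Leaving out vehicle replicate E gave -0.06, AM6545 replicate E -0.08 and vehicle replicate D -0.23. In vehicle replicate B, where Prox1 was lowest of all libraries, C1ql2 was above the mean of both groups.

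Dsp varied most between replicates, with a within-group SD of 0.34 on the log2 scale that exceeded that of 84.1% of all genes. It was at 17.4, 12.4, 8.94 and 11.9 CPM in AM6545 replicates B, D, E and F and at 13.4, 14.3 and 18.0 CPM in vehicle replicates B, D and E. AM6545 replicate E was lowest and AM6545 replicate B was inside the vehicle range. The log2 fold change was -0.26 (SE 0.19; edgeR, adjusted p 0.531), from -0.13 without AM6545 replicate E or vehicle replicate E to -0.46 without AM6545 replicate B.

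**Figure D2:**
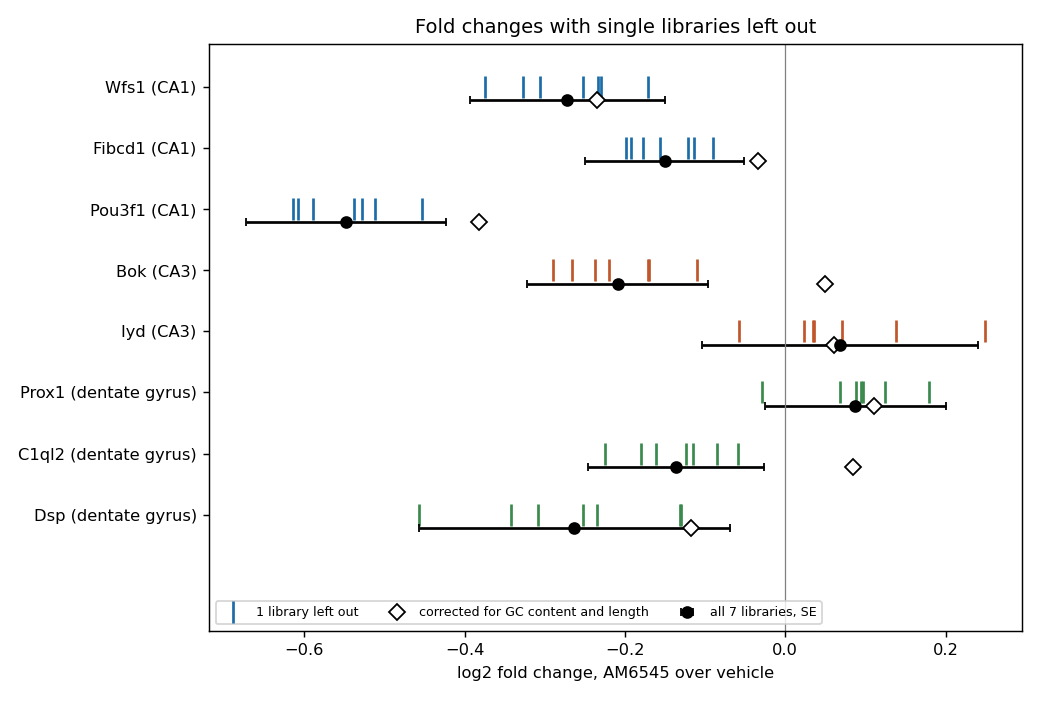
Log2 fold change of each marker, AM6545 over vehicle, with all 7 libraries (black points with SE), with each library left out in turn (coloured ticks) and after correction for GC content and length (open diamonds). Pou3f1, Wfs1, Fibcd1, Bok, C1ql2 and Dsp stay below 0 with any 1 library left out, Iyd and Prox1 cross 0, and the correction moves Bok and C1ql2 above 0.

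GC content moved with these fold changes. The 5 members with a GC content above 55% (Wfs1, Fibcd1, Pou3f1, Bok and C1ql2) had log2 fold changes of -0.55 to -0.14 with a median of -0.21. Among the 1692 genes between 57.8% and 63.9% GC, the range of those 5, the median was -0.15 and 79.6% were below 0. The other 3 members (Prox1, Iyd and Dsp) had a median of 0.07, and the 4455 genes between 45.7% and 51.5% GC had a median of 0.05, with 41% below 0. Within those 3, Dsp at -0.26 was below the lower quartile of -0.15 for genes between 50% and 52.5% GC, whose median was 0.0021.

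When the trend of each library with transcript length and GC content was removed, the log2 fold changes of Bok and C1ql2 changed sign, to 0.05 and 0.08. That of Fibcd1 shrank to -0.03 and that of Dsp to -0.12. Wfs1, at -0.24, and Pou3f1, at -0.38 (SE 0.11; edgeR, adjusted p 0.716), kept most of their difference. After the correction 4 of the 8 members were below 0. The GC slopes of the 2 groups do not overlap, so the trend cannot be told apart from treatment, and its part in the marker values was not tested.

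**Figure D3:**
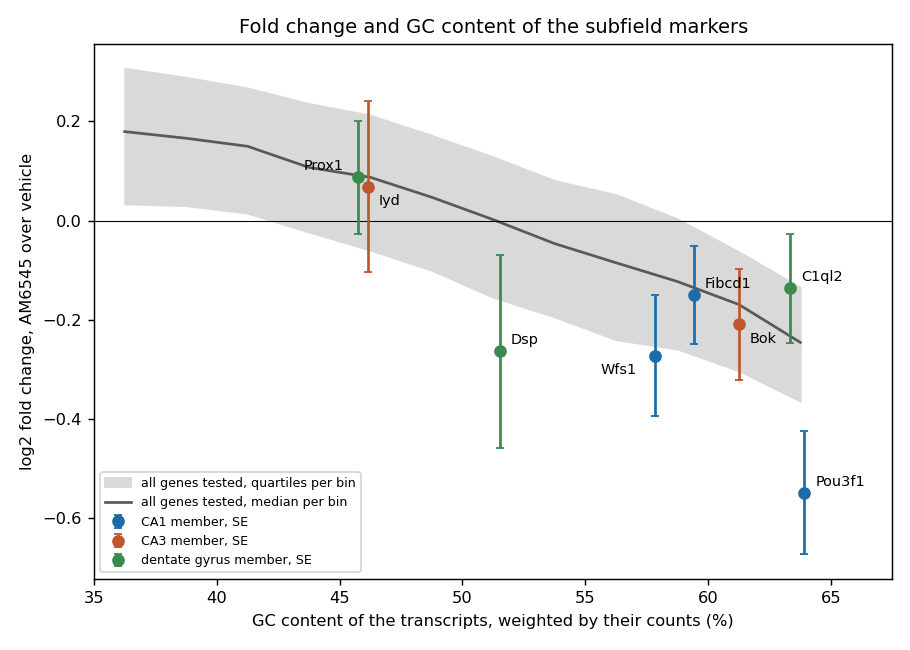
Log2 fold change (AM6545 over vehicle) of the 8 markers with SE against the GC content of their transcripts, over the median and quartiles of all genes tested in bins of GC content. The all-gene median falls from 0.18 in the lowest bin to -0.25 in the highest, Bok, Fibcd1, Prox1 and Iyd lie close to it, and Pou3f1, Dsp and Wfs1 lie below the lower quartile of their bin.

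The balance between subfields inside a library was described by the mean log2 CPM of the markers of each subfield, a measure with no test because the members were chosen with results known. The CA1 mean was 7.11, 7.10, 7.06 and 7.16 in AM6545 replicates B, D, E and F and 7.47, 7.34 and 7.50 in vehicle replicates B, D and E, without overlap. In AM6545 replicate E a high Wfs1 stood beside a low Pou3f1, and its CA1 mean was close to that of the other 3 libraries. The summed CPM of the 3 CA1 markers was 419 to 441 in AM6545 and 494 to 561 in vehicle. The CA3 mean was 4.80 ± 0.12 in AM6545 (SD, n = 4) and 4.85 ± 0.24 in vehicle (SD, n = 3), and the dentate gyrus mean 5.53 ± 0.18 and 5.64 ± 0.17, both with overlap.

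Differences between subfield means within a library do not depend on how libraries are scaled to each other. CA1 minus dentate gyrus was 1.36, 1.55, 1.75 and 1.67 in AM6545 replicates B, D, E and F and 1.96, 1.77 and 1.67 in vehicle replicates B, D and E. Its group means, 1.58 ± 0.17 (SD, n = 4) and 1.80 ± 0.15 (SD, n = 3), were 0.22 apart, and the groups overlapped. AM6545 minus vehicle was -0.14 without vehicle replicate B and -0.14 without AM6545 replicate B, against -0.22 with all libraries. CA1 minus CA3 was 2.24, 2.47, 2.25 and 2.27 in AM6545 and 2.36, 2.51 and 2.88 in vehicle, with group means 0.27 apart, 0.12 without vehicle replicate E and 0.10 with medians over the members. CA3 minus dentate gyrus spread most over libraries, from -1.20 in vehicle replicate E to -0.40 in vehicle replicate B, so the extremes of all 7 libraries were both vehicle. Its group means of -0.73 ± 0.20 (SD, n = 4) and -0.78 ± 0.40 (SD, n = 3) differed by less than the spread between replicates, and AM6545 minus vehicle, 0.05 with all libraries, was -0.16 once vehicle replicate E was dropped and 0.25 once vehicle replicate B was. Corrected for length and GC content, AM6545 minus vehicle was -0.25 for CA1 minus dentate gyrus and -0.29 for CA1 minus CA3, and the corrected CA1 means still did not overlap, with group means 0.22 apart.

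**Figure D4:**
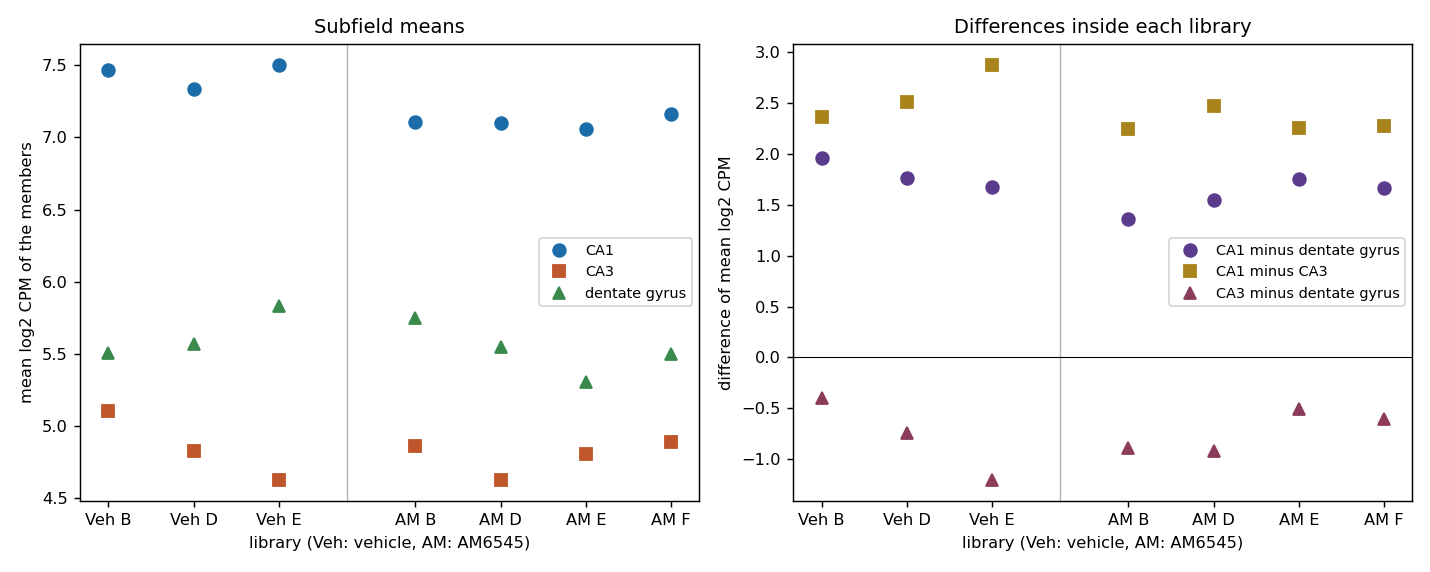
Left, mean log2 CPM of the CA1, CA3 and dentate gyrus markers in each library; right, the differences between these means inside each library. The CA1 means of the 4 AM6545 libraries (7.06 to 7.16) lie below those of the 3 vehicle libraries (7.34 to 7.50), while the 3 differences overlap between the groups.

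Whether markers of the same subfield varied together across libraries was examined in 28 pairs of members. By Pearson's r, 0 of the 28 had an adjusted p under 0.05, and 2 had an unadjusted exact permutation p under 0.05. The closest pair came from different subfields: Fibcd1 and Bok had a Pearson's r of 0.89 over 7 libraries (exact permutation p 0.00952, adjusted p 0.267) and a Spearman's rho of 0.68 (exact permutation p 0.110, adjusted p 0.486). Their log2 ratio had an SD of 0.09 over the libraries, the smallest of all pairs. Without AM6545 replicate E and vehicle replicate B, the libraries farthest from the median of Fibcd1, r was 0.66. Taken over deviations from the group means, r was 0.82 (exact permutation within groups, unadjusted p 0.0625).

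The second pair was C1ql2 and Dsp of the dentate gyrus, with r of 0.80 (exact permutation p 0.0298, adjusted p 0.415) and rho of 0.71 (exact permutation p 0.0881, adjusted p 0.486). This r was 0.33 without AM6545 replicate E and vehicle replicate E, the libraries farthest from the median of C1ql2. Over deviations from the group means it was 0.75 (exact permutation within groups, unadjusted p 0.0694). Neither of the 2 pairs thus had an unadjusted p under 0.05 within groups. Leaving out the extremes narrows the range of C1ql2, so the lower r does not show that the relation rested on those libraries. Prox1 did not follow C1ql2 (r -0.08, rho 0.36, exact permutation p 0.889 and 0.444, adjusted p 0.922 and 0.819), and r was 0.71 without vehicle replicates B and E. The 7 pairs of the same subfield had a median r of 0.31 (from -0.08 to 0.80) and the 21 pairs of different subfields one of 0.13 (from -0.66 to 0.89). The median SD of the log2 ratio was 0.24 and 0.28.

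**Figure D5:**
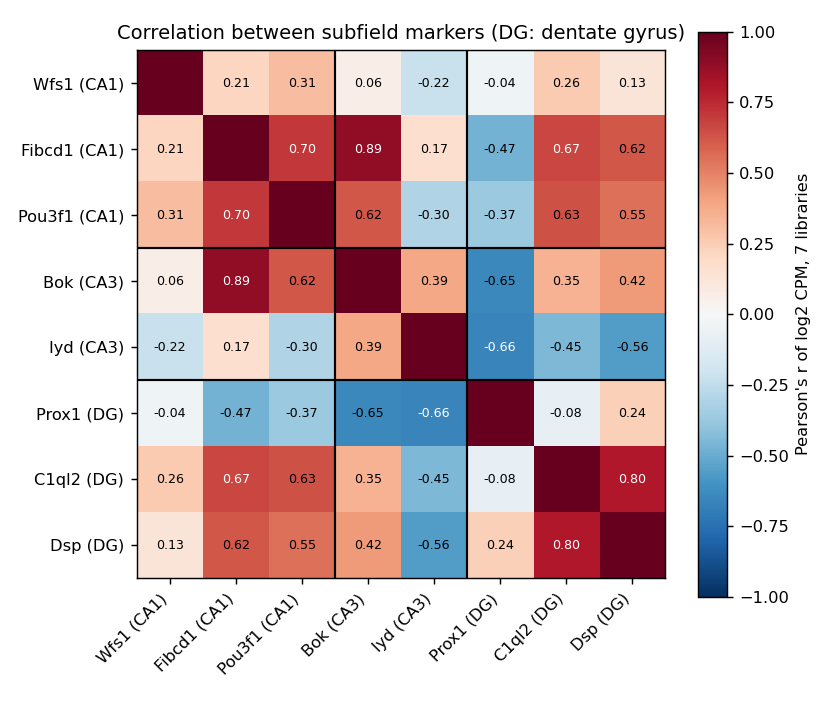
Pearson's r between the log2 CPM of each pair of markers over the 7 libraries, with lines separating CA1, CA3 and dentate gyrus (DG). The highest value, 0.89, joins Fibcd1 of CA1 with Bok of CA3, and Prox1 has values from -0.66 to 0.24 with the other 7 markers.

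By the rule for likeness, the genes that followed the CA1 mean most closely over the 7 libraries, among 10886 candidates, were Dnajc4 (r 0.98), Chac1 (0.97) and Mcts2 (0.97). Those most like the CA3 mean were Rab11fip5 (0.96), Zswim7 (0.96) and Tgfbrap1 (0.95), and those most like the dentate gyrus mean were Atxn2l (0.98), Klc4 (0.98) and Zfp579 (0.98). These are the highest of many values and have no p. None of the 9 is among the subfield genes listed here. GC content was 46.9% to 57.5% for the 3 most like the CA1 mean. It was 53.0% to 57.7% for those most like the CA3 mean and 58.4% to 65.8% for the dentate gyrus.

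Further markers of the same subfields were read from a list of 19 genes, all tested. By edgeR 0 of the 19 had an adjusted p under 0.05 and 1 had an unadjusted p under 0.05, against 14.6% of all genes. The log2 fold change was below 0 for 11 of the 19 and above 0 for 8, with a median of -0.01. In CA1, Itpka, an inositol trisphosphate kinase, averaged 380.1 ± 43.3 CPM over AM6545 libraries (SD, n = 4) and 406 ± 28.2 CPM over vehicle libraries (SD, n = 3), a log2 fold change of -0.10, and Mpped1 had -0.06. In CA3, Cpne4 had 0.13 and Nectin3, an adhesion protein, 0.05. In the dentate gyrus, Stxbp6 had 0.20 and Sema5a, a semaphorin, -0.13 (edgeR, adjusted p 0.410 to 0.832 for these 6). Sema5a did not overlap between the groups, at 41.8 to 46.6 CPM in AM6545 and 47.0 to 49.6 CPM in vehicle. Of all genes tested, 7.19% were separated in this direction, so separation was not particular to CA1 markers. The summed CPM of the 5 other CA1 genes overlapped between the groups, at 767 to 843 in AM6545 and 837 to 859 in vehicle. Only AM6545 replicate F lay within the vehicle range, and 4 of the 5 genes had a log2 fold change below 0. The sums of the 9 other dentate gyrus genes, 267 to 297 and 274 to 306, and of the 5 other CA3 genes, 173.1 to 186 and 166 to 173.3, overlapped as well. A sum is led by its most abundant genes. The mean log2 CPM of the 3 CA1 members and the 5 other CA1 genes together was 6.53 to 6.66 in AM6545 and 6.76 to 6.82 in vehicle, without overlap. That mean includes the members. The same means for CA3 and the dentate gyrus overlapped.

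CA2 and the hilus lie between these fields. Of 8 CA2 genes, 0 passed the adjusted threshold and 2 had an unadjusted p under 0.05 by edgeR, against 14.6% of all genes. These 2 were named after their values were seen. Amigo2 had a log2 fold change of 0.23 and Pcp4, a calmodulin-binding protein, -0.35 (edgeR, adjusted p 0.315 and 0.245). Rgs14, a CA2 regulator of G protein signalling, had 0.15 (adjusted p 0.696) and Necab2 -0.05. Of 5 mossy cell genes, Nmb (-0.58, named after its value was seen) and Sv2c (-0.34) had an unadjusted p under 0.05, beside the same 14.6%. Their adjusted p-values were 0.336 and 0.323 by edgeR. Calb2, which encodes calretinin, had 0.14.

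Genes of adjoining regions give the state of the dissection beside the subfield values. The summed CPM of 4 subiculum genes was 18.7 to 37.7 in AM6545 and 33.9 to 38.4 in vehicle. All 4 log2 fold changes were below 0, as for 48.6% of all genes. By edgeR 1 of the 4 had an unadjusted p under 0.05, against 14.6% of all genes. It was Fn1 (-0.36; edgeR, adjusted p 0.327; named after its value was seen). AM6545 replicate B was lowest for the subiculum sum, and it also had the lowest CA1 minus dentate gyrus difference. Neocortex genes summed to 142 to 166 in AM6545 and 158 to 166 in vehicle, thalamus genes to 55.6 to 78.3 and 55.6 to 65.2, and striatum genes to 138 to 181 and 152 to 185. Choroid plexus genes spanned 434 to 2054 in AM6545 and 1623 to 2877 in vehicle, lowest in AM6545 replicate F, which had the highest CA1 and CA3 means of its group. Log2 fold changes were below 0 for all 7 choroid plexus genes, as in the subiculum list. They were below 0 for 4 of 5 neocortex, 4 of 6 thalamus and 4 of 6 striatum genes. The part of these tissues in the subfield values was not tested.

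Among cell type lists, 5 genes of excitatory and other neurons summed to 6642 to 6914 CPM in AM6545 and 6229 to 6298 in vehicle, without overlap. Snap25, a presynaptic SNARE protein of neurons in general, was the most abundant of them and took most of that gap, with means of 3721 ± 181 (SD, n = 4) and 3209 ± 63.9 CPM (SD, n = 3) and a log2 fold change of 0.21 (edgeR, adjusted p 0.365). Slc17a7 had -0.05 and Camk2a, a postsynaptic kinase of excitatory neurons, -0.09 (edgeR, adjusted p 0.838 and 0.704; Camk2a was named after its value was seen). These were the only 2 of the 5 genes below 0. The other 3 were above 0, and the median log2 fold change of the list was 0.15, against 0.01 for all genes. The sums of interneuron (625 to 718 and 642 to 712), astrocyte (1542 to 1882 and 1462 to 1986), oligodendrocyte (14529 to 16993 and 14760 to 18854), microglia (432 to 475 and 421 to 545) and endothelial and mural genes (14.1 to 18.4 and 11.7 to 17.4) overlapped. None of the genes in the cell type lists was at 0. Of the 29 genes in these 6 lists 0 passed the adjusted threshold by edgeR and 3 had an unadjusted p under 0.05, against 14.6% of all genes.

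Transcript counts show which mRNA forms carried the members. The table listed 19 transcripts of the 8 genes, of which 15 passed the filter and 0 had an adjusted p under 0.05 by edgeR (0.0177% of 33962 transcripts, 6 in all), with 2 at an unadjusted p under 0.05 (8.39% of all). Fibcd1, Pou3f1 and C1ql2 were each counted as 1 transcript. Bok-201 took 95.02% of the counts of Bok, Prox1-202 94.2% of Prox1 and Iyd-201 88.3% of Iyd. Pou3f1-201, at -0.54 (edgeR, adjusted p 0.559), was 1 of the 2 with an unadjusted p under 0.05.

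The other was Wfs1-202, a shorter protein-coding transcript. It took 19.3% of the Wfs1 counts in vehicle replicate B (95% Wilson interval 18.2% to 20.4%), 3.18% in vehicle replicate D (2.73% to 3.71%) and 1.59% in vehicle replicate E (1.27% to 1.99%). In AM6545 it took 0.697% in replicate B (0.482% to 1.01%) and 0% in replicates D, E and F, where 0 counts allow up to 0.0645% to 0.0693%. All 4 AM6545 libraries were below all 3 vehicle libraries, and the threshold was not passed (edgeR, p 0.0123, adjusted p 0.559). Of all genes tested, 7.19% were separated in this direction, and the share among transcripts was not counted. These intervals and limits cover counting error only, not errors in dividing reads between transcripts that share most of their sequence.

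The main transcript, Wfs1-201, was at 173, 166, 220.4 and 166 CPM in AM6545 replicates B, D, E and F and at 167, 196 and 242 CPM in vehicle replicates B, D and E. Its log2 fold change was -0.15 (SE 0.16; edgeR, adjusted p 0.835), from -0.27 without vehicle replicate B and -0.26 without AM6545 replicate E to -0.0098 without vehicle replicate E. For this transcript vehicle replicate B lay inside the AM6545 range.

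In Prox1, the minor transcript Prox1-203 took 3.29% to 5.51% of the counts in AM6545 and 0.245%, 1.36% and 4.12% in vehicle replicates B, D and E, where the lowest value rested on 2 counts. Its log2 fold change was 1.13 (SE 0.84; edgeR, adjusted p 0.761), while that of the main form Prox1-202 was 0.04. Without vehicle replicate E that of Prox1-203 was 2.44, and without vehicle replicate B it was 0.60. Prox1-202 was itself at 31.9 CPM in vehicle replicate B, against 38.2 to 41.3 CPM in the other 6 libraries, so the low Prox1 of that library was in its main transcript. In Dsp, the longest form Dsp-201 took between 5.48% and 32.6% of the counts over the libraries, with both groups spanning most of that range.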

How the data were processed

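Estimated counts per gene and per transcript, 1 column per library, are as deposited by the authors, unscaled, and 83.5% of gene values above 0 are not whole. The submitters' processing notes list Salmon 1.5.2 and build mm10. Which annotation was counted, and whether strand was used, is not given in the sources used here. Names, positions, lengths and sequences came from GENCODE M21 (GRCm38), which held 22148 of 22248 gene identifiers and 101527 of 102392 transcript identifiers, mostly in another version.

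Counts were rounded and tested with edgeR 4.0.16 (R 4.3.3; TMM, filterByExpr, robust quasi-likelihood fit, no covariates) over all genes, adjusted by Benjamini-Hochberg at 0.05. Standard errors were derived from each fold change and its F statistic. Log2 CPM used a prior count of 0.5. The code was tested on simulated data. DESeq2 1.42.0, limma 3.58.1 (voom), other scalings and filters, a lowess correction (span 0.3), a replicate block and single libraries left out were alternatives. Correlations used exact two-sided permutation of 7 libraries, or of the libraries within each group for deviations from group means.

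The members, lists and tests were chosen with earlier results of these data known. Named by rule were the 8 members, the 2 most abundant genes of each list and the 3 genes most like each subfield mean (at least 5 CPM, no model names). Listed genes not described individually entered the counts and sums. The values of 1 listed gene are not reported here.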

Additional observations from a re-analysis of the deposited data

Results flagged for a closer look

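Among 29 values read in the 4 AM6545 libraries, 4 had a single library well apart from the rest, which chance gives for about 1 in 20 independent values. The 4 are not independent: Wfs1 and Wfs1-201 share nearly all their reads, and Wfs1-202 was at 0 in the other 3 libraries, so that any value above 0 stands apart. Groups of 3 were not compared in this way. AM6545 replicate E had 219 CPM of Wfs1, where the other AM6545 libraries had 165 to 174 and vehicle 201 to 249. The main transcript Wfs1-201 was at 220.4 CPM in the same library, against 166 to 173 in the other AM6545 libraries and 167 to 242 in vehicle. Wfs1-202 was at 1.21 CPM in AM6545 replicate B and at 0 in the other AM6545 libraries, with 3.90 to 39.8 in vehicle. The difference CA1 minus CA3 was 2.47 in AM6545 replicate D, against 2.24 to 2.27 in the other AM6545 libraries and 2.36 to 2.88 in vehicle.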

How the results depend on the processing

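Over 19 alternatives, Wfs1, Fibcd1, Pou3f1 and Dsp stayed below 0. Pou3f1 passed the threshold with DESeq2 (-0.55), limma-voom (-0.42) and without vehicle replicate E, and its log2 fold change was -0.61 to -0.45 with 1 library left out. After the GC content and length correction Bok became 0.049 and C1ql2 0.084, and with the replicate block added 0.043 and 0.12. C1ql2 was 0.0083 with limma-voom. Leaving out 1 library gave -0.057 to 0.25 for Iyd and -0.029 to 0.18 for Prox1. Without AM6545 replicate E and vehicle replicate B together, an alternative chosen after seeing the data, Prox1 was -0.023, Pou3f1 -0.42 (adjusted p 0.772) and 7 of 8 members were below 0. The cause of these changes was not tested.

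Genes past the threshold numbered 205 with DESeq2, 394 with limma-voom, 2 without robust estimation or with a mean of at least 50 counts, 0 after the GC content and length correction (1008 unadjusted), 0 without AM6545 replicate E and vehicle replicate B together (884 unadjusted), and 0 to 944 with 1 library left out, 944 without vehicle replicate E. Among transcripts, leaving out 1 library gave -0.041 to 0.24 for Iyd-201, -0.74 to 0.46 for Iyd-202, -0.068 to 0.10 for Prox1-202 and -0.63 to 0.36 for Dsp-201, and Pou3f1-201 passed with DESeq2. Over 13 alternatives, AM6545 minus vehicle was -0.28 to -0.14 for CA1 minus dentate gyrus and -0.38 to -0.10 for CA1 minus CA3. For CA3 minus dentate gyrus it was -0.16 to 0.25, on both sides of 0. No pair of members had an adjusted correlation p under 0.05 with total counts or within groups.

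Between libraries of the same replicate letter, deviations from group means had correlations over genes of -0.22 (B), -0.11 (D) and -0.14 (E). Between libraries of different letters they were -0.16 to 0.19. Libraries of the same letter were thus not more alike, though so few values cannot show that the letters carry no pairing. With the letter as a replicate block 1 gene passed (1199 unadjusted), 0 members passed and Pou3f1 was -0.63 (adjusted p 0.595). Counts per library were lowest for Iyd (79) and Dsp (190), and how far depth limits their values was not tested.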
